A study of Mus musculus with 5 samples.

Results

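Oxidative phosphorylation is carried out by 5 protein complexes in the inner mitochondrial membrane, and the genes described here are those whose symbols name subunits of these complexes. They were chosen by symbol (mt-Nd, mt-Co, mt-Atp, mt-Cytb, the Nduf genes, Sdha to Sdhd, Uqcr, Cox4 to Cox8 and Atp5) with at least 100 UMIs over the 5 deposited matrices, a UMI being 1 captured RNA molecule. Of the 55450 genes measured, 120 matched by symbol and 107 reached the minimum, 13 of them encoded in the mitochondrial genome and 94 in the nucleus. Just inside the minimum was Cox7b2 with 162 UMIs, and just outside was Cox6c2, a processed pseudogene, with 99. The matrices held cells from the injury site in the cortex of C57BL/6J mice at day 1, 3, 7 and 14 after traumatic brain injury (TBI) and from sham cortex. Each group was 1 library, so every difference below compares libraries and no test was run. The intervals are 95% intervals for counting error alone, and no spread between animals could be measured. The sources used here do not say how many mice gave the cells of a library.

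The electron transport complexes I to IV pass electrons to oxygen and pump protons, and complex V uses the proton gradient to make ATP. The mitochondrial genome encodes a core of hydrophobic subunits and the ribosomal RNAs for translating them, while the nucleus encodes the other subunits, all of complex II, and the assembly factors. In brain, neurons depend heavily on oxidative phosphorylation, astrocytes combine it with glycolysis, and activated microglia are known to change the balance between both. In single-cell work a high share of mitochondrial RNA is also widely used to filter out damaged cells, which makes the mitochondrial-encoded members part of a quality measure.

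The 13 mitochondrial-encoded members held 5123817 UMIs and the 94 nuclear-encoded members 6283801. Complex I counted 7 mitochondrial and 38 nuclear members, besides 8 of its assembly factors (the Ndufaf genes). Complex II counted 4 nuclear members, complex III 1 mitochondrial (mt-Cytb) and 8 nuclear, complex IV 3 mitochondrial and 19 nuclear, and complex V 2 mitochondrial and 17 nuclear. Nuclear members ranged from 162 to 315396 UMIs.

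The libraries differed widely in depth and in the states of their cells, and these facts touch every comparison with sham. Total UMIs were 11279455 in sham, 26705021 at day 1, 41090570 at day 3, 110205126 at day 7 and 129161094 at day 14, and the median UMIs per barcode were 773, 1755.5, 3256, 6581 and 8558 in the same order. The matrices held 9895 to 14159 barcodes a library, against 5188 to 11934 cells loaded per sample by the labels, and any 2 libraries shared 27 to 59 barcodes. After removal of called doublets and of cells with over 20% of UMIs on mt- genes (the 13 members, 2 ribosomal RNA genes and the tRNA genes), 9439 to 11930 cells a library were kept. Cell classes were named from marker genes after clustering without any mt- gene or member. Microglia/macrophages, the pool of microglia-like and monocyte/macrophage-like clusters, numbered 3399 to 6742 kept cells a library, astrocyte-like cells 210 to 4478 and oligodendrocyte-like cells 384 to 2053. Different clusters held most of these classes in different libraries. Microglia/macrophages lay mainly in cluster 5 in sham (93.8%), 6 at day 1, 7 at day 3, 12 and 14 at day 7 and 26 at day 14, and the leading genes of cluster 5 included the heat shock genes Hspa1a and Hspa1b. Astrocyte-like cells lay mainly in clusters 0 and 1 in sham, 27 at day 1, 21 at day 3 and 3 at day 7 and day 14, and oligodendrocyte-like cells in cluster 8 up to day 3, 22 at day 7 and 25 at day 14. Values across libraries therefore compare cell states as well as times. Unnamed cluster 11 is not part of the astrocyte-like cells, though it passed 11 of 12 astrocyte markers. Its leading genes included Lcn2 and Timp1, and it held 99 kept cells at day 1, 826 at day 3, 343 at day 7 and 65 at day 14. In sums over cells of a class, less RNA of a gene per cell and fewer cells holding it cannot be told apart.

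Transcripts of the mitochondrial members are in part copied in the nuclear genome, and the sequences below show how closely, because a read that matches a copy as well as the gene may not be counted for either. The last 90 bases of the mt-Co2 gene, before its final few bases, are also found letter for letter in the unprocessed pseudogene Gm28661, at chr1:24614885-24614974 on the minus strand, and are given in lower case throughout as no base differs. The last 90 bases of mt-Cytb are found in no other annotated gene. For mt-Nd3 the copy, Gm28438, differs at 1 of 345 aligned bases, T3C counted from the first base of the gene, which is the capital letter. Coordinates are on GRCm38 with GENCODE M21 genes.
mt-Co2 (bases 592 to 681 of 684, chrM:7604-7693, plus strand): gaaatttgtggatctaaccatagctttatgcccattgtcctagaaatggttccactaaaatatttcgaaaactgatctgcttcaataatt
mt-Cytb (bases 1055 to 1144 of 1144, chrM:15199-15288, plus strand): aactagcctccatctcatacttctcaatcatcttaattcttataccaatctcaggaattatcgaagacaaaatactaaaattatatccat
mt-Nd3 (bases 1 to 90, chrM:9459-9548, plus strand): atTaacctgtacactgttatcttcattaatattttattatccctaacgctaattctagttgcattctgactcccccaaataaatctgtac
Gm28438 (chr1:24613030-24613119, minus strand): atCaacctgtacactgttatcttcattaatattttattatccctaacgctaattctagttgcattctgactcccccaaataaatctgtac

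The relation between both genomes was first set out as the ratio of mitochondrial-encoded to nuclear-encoded member UMIs, which does not depend on the total of the library. In kept microglia/macrophages the ratio was 0.289 in sham, 0.424 at day 1, 0.450 at day 3, 0.915 at day 7 and 0.362 at day 14. In astrocyte-like cells it was 0.455 in sham, 0.551 at day 1, 0.747 at day 3, 2.36 at day 7 and 0.983 at day 14. In oligodendrocyte-like cells it was 0.380 in sham, 0.704 at day 1, 0.894 at day 3, 1.87 at day 7 and 1.09 at day 14. Day 7 was the highest library in each of these 3 classes, sham the lowest, and every injured library lay above sham. Unnamed cluster 11, with most astrocyte markers, had 0.409 at day 1, 0.468 at day 3, 1.06 at day 7 and 0.764 at day 14. These values lay below those of astrocyte-like cells in the same libraries.

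On the log2 scale, the day 7 ratio exceeded sham by 1.66 in microglia/macrophages (interval 1.63 to 1.69), by 2.37 in astrocyte-like cells (2.36 to 2.39) and by 2.30 in oligodendrocyte-like cells (2.27 to 2.32). The astrocyte-like difference corresponds to 5.19-fold. At day 1 the differences were 0.55 in microglia/macrophages, 0.28 in astrocyte-like cells and 0.89 in oligodendrocyte-like cells. At day 3 they were 0.72 in astrocyte-like cells and 1.23 in oligodendrocyte-like cells, with 0.63 (0.61 to 0.66) in microglia/macrophages. At day 14 they were 0.32 (0.29 to 0.35) in microglia/macrophages, 1.11 in astrocyte-like cells and 1.52 in oligodendrocyte-like cells. Some of the smaller differences moved by over 1.5 times with the choice of cells or genes. With at least 1000 UMIs per cell they were 0.32 at day 1, 0.40 at day 3 and 0.09 at day 14 in microglia/macrophages and 0.09 at day 1 in astrocyte-like cells. With single cells assigned by marker score the day 3 value of astrocyte-like cells was 0.37, and with every cell thinned to 500 UMIs their values were 0.42 at day 1 and 1.86 at day 14, with 0.65 at day 14 in microglia/macrophages.

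**Figure D1:**
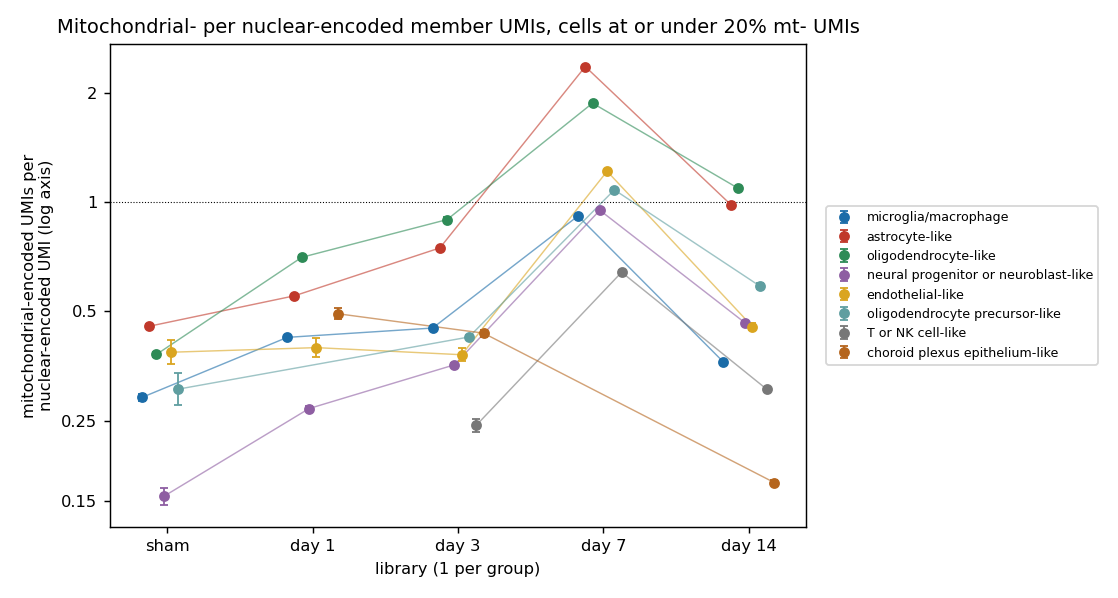
UMIs of the 13 mitochondrial-encoded members divided by UMIs of the 94 nuclear-encoded members (vertical axis, log scale) in 8 cell classes, by library (horizontal axis), in cells kept after the 20% filter; bars are 95% intervals for counting error and lines join the libraries of a class. Day 7 lies above the other libraries in microglia/macrophages (0.915), astrocyte-like cells (2.36) and oligodendrocyte-like cells (1.87).

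The ratio was also read where the same clusters held kept cells in every library. Endothelial-like cells lay mainly in 1 cluster, with 65 to 398 cells a library. Their ratio was 0.386 in sham, 0.397 at day 1, 0.380 at day 3, 1.21 at day 7 and 0.454 at day 14, so day 7 stood apart while day 1 and day 3 differed from sham by 0.04 (−0.10 to 0.18) and −0.02 (−0.15 to 0.10) on the log2 scale. In neural progenitor or neuroblast-like cells it was 0.155 in sham, 0.270 at day 1, 0.356 at day 3, 0.948 at day 7 and 0.464 at day 14. Cluster 9 of that class gave 0.142, 0.289, 0.363, 0.989 and 0.452 in the same order. In oligodendrocyte-like cells of cluster 8 it was 0.383 in sham, 0.703 at day 1, 0.905 at day 3, 1.88 at day 7 and, in only 113 cells, 2.18 at day 14. Day 7 thus had the highest ratio in the endothelial-like cells and in cluster 9, but not in cluster 8.

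The ratio differed among immune cells. Neutrophil-like cells had 0.547 at day 1, 0.255 at day 3, 1.05 at day 7 and 0.246 at day 14. These are ratios of sums, and the median neutrophil-like cell differed from them. At day 1 it had 0.0770% of UMIs on mitochondrial-encoded and 0.951% on nuclear-encoded members, and at day 7 0.586% and 1.29%. Only 31.6% of the 95 day 7 cells had the mitochondrial sum above the nuclear one. The ratio of T or NK cell-like cells was 0.243 at day 3, 0.640 at day 7 and 0.305 at day 14. Monocyte/macrophage-like cells had 0.185 at day 1, 0.217 at day 3, 0.727 at day 7 and 0.298 at day 14, below microglia-like cells of the same libraries, which had 0.431, 0.656, 0.945 and 0.398. Monocyte/macrophage-like cells counted 84 at day 1, 980 at day 3, 601 at day 7 and 1659 at day 14. With microglia-like cells alone, the day 3 difference from sham was 1.17 in place of 0.63. Choroid plexus epithelium-like cells had 0.492 at day 1, 0.435 at day 3 and 0.169 at day 14, and there the nuclear share was high, at 4.84%, 5.42% and 6.40% of UMIs.

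The ratio joins 2 quantities, and their shares of all UMIs of the class moved differently. Mitochondrial-encoded members took 0.351% of microglia/macrophage UMIs in sham, 0.762% at day 1, 1.12% at day 3, 1.37% at day 7 and 0.663% at day 14. In astrocyte-like cells they took 1.23% in sham, 1.13% at day 1, 1.99% at day 3, 4.80% at day 7 and 2.79% at day 14. In oligodendrocyte-like cells they took 0.901% in sham, 1.34% at day 1, 1.80% at day 3, 3.04% at day 7 and 2.06% at day 14. The highest of the 5 values was at day 7 in each class, and the lowest was in sham except in astrocyte-like cells, where day 1 was lower than sham by 0.12 on the log2 scale. That small difference changed sign when library totals were scaled by TMM, to 0.09.

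Nuclear-encoded members took 1.21% of microglia/macrophage UMIs in sham, 1.80% at day 1, 2.49% at day 3, 1.50% at day 7 and 1.83% at day 14. In astrocyte-like cells they took 2.71% in sham, 2.06% at day 1, 2.66% at day 3, 2.04% at day 7 and 2.84% at day 14. In oligodendrocyte-like cells they took 2.37% in sham, 1.91% at day 1, 2.02% at day 3, 1.63% at day 7 and 1.89% at day 14. Against sham, microglia/macrophages had more in each injured library, by 0.57, 1.04, 0.31 and 0.59 on the log2 scale from day 1 to day 14, and oligodendrocyte-like cells had less, by −0.31, −0.23, −0.54 and −0.33. The astrocyte-like differences were −0.40 at day 1, −0.03 at day 3, −0.41 at day 7 and 0.06 at day 14, and those at day 3 and day 14 changed sign with TMM scaling, to 0.10 and −0.16. The same scaling gave 0.70 at day 7 and 1.29 at day 14 in microglia/macrophages, and −0.18 at day 1 and −0.22 at day 7 in astrocyte-like cells.

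These shares are shares of a total that other genes also fill. In microglia/macrophages the median log2 difference of all measured genes was −0.07 at day 1, −0.40 at day 3, −0.36 at day 7 and −0.54 at day 14, and TMM scaling moved every gene of that class up by 0.10, 0.48, 0.39 and 0.70 at the same times. Cytosolic ribosomal protein genes summed to 125987, 180626, 146777 and 185580 CPM (UMIs of a gene scaled to a common total per class) in microglia/macrophages from day 1 to day 14, against 75883 in sham. Immediate early and heat shock genes summed to 21703, 14908, 12999 and 8389 CPM, against 39952 in sham. The nuclear RNA Malat1 was at 59594 CPM in astrocyte-like cells at day 7 and 39462 at day 14, against 207899 in sham. RNA of other cell types was present too: oligodendrocyte markers summed to 150 to 1249 CPM in injured microglia/macrophages, against 3464 in sham, and astrocyte markers to 139 to 1124, against 1470, with none of the 11 and 12 markers at 0. The part of these sums in the members' differences was not tested.

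**Figure D2:**
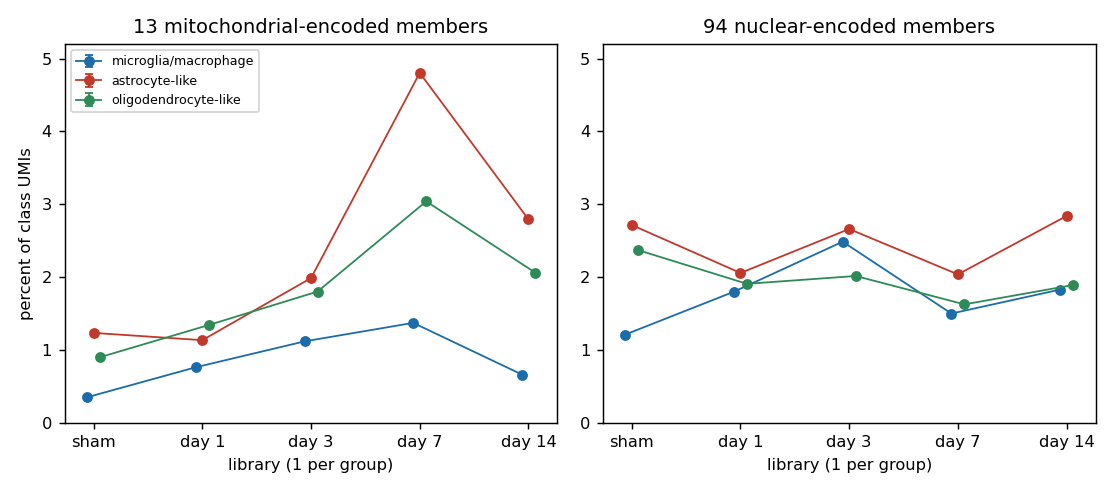
Percent of all UMIs of a class taken by mitochondrial-encoded and by nuclear-encoded members, by library, in kept cells of 3 classes, with 95% intervals for counting error, which are smaller than the points. The mitochondrial share peaks at day 7 (4.80% in astrocyte-like cells), while the nuclear share of microglia/macrophages is highest at day 3 (2.49%).

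The same pattern was read cell by cell. The share of astrocyte-like cells with more mitochondrial-encoded than nuclear-encoded member UMIs was 10.3% in sham, 17.4% at day 1, 32.0% at day 3, 96.8% at day 7 and 52.9% at day 14. Thinned to 500 UMIs in every cell, which left out no kept cell, the shares were 10.7% in sham, 20.4% at day 1, 33.5% at day 3, 92.6% at day 7 and 50% at day 14. Among microglia/macrophages the shares were 3.73% in sham, 4.93% at day 1, 17.1% at day 3, 43.6% at day 7 and 5.60% at day 14, and thinned they were 5.75%, 9.35%, 20.2%, 44.0% and 10.8%. Oligodendrocyte-like cells had 9.37%, 31.3%, 43.8%, 92.2% and 57.3%, and thinned 11.8%, 34.6%, 48.7%, 82.7% and 52.1%. At day 7 most astrocyte-like and oligodendrocyte-like cells, but under 50% of microglia/macrophages, had the mitochondrial sum above the nuclear one. Astrocyte-like cells at day 14 were spread widely, with a 10th percentile of 1.39%, a median of 2.87% and a 90th percentile of 10.0% of UMIs on mitochondrial-encoded members.

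Day 7 was also the library in which the 20% filter removed most cells. Over 20% of UMIs were on mt- genes in 0 cells in sham, 2 at day 1, 18 at day 3, 1726 of 13656 at day 7 (12.6%, interval 12.1 to 13.2, exact Clopper-Pearson) and 59 at day 14 (0.509%). By class the day 7 share was 26.1% of astrocyte-like cells (24.2 to 28.1), 27.2% of neural progenitor or neuroblast-like cells, 20.1% of oligodendrocyte precursor-like cells and 13.9% of oligodendrocyte-like cells. It was 5.94% of microglia/macrophages (5.41 to 6.52), 5.01% of T or NK cell-like cells and 4.10% of endothelial-like cells. Cells of unnamed clusters exceeded the limit most often, at 36.0%. Of these 825 cells, 627 lay in cluster 11, which passed 11 of 12 astrocyte markers. Astrocyte-like cells were 12.5% of the day 7 cells after the filter, against 14.8% before it, and microglia/macrophages were 56.5% after it, against 52.5% before it.

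The removed day 7 cells had a median of 2407 UMIs and 831.5 genes, against 7156.5 UMIs and 2478 genes in the kept ones. They held 4.96% of the library's UMIs, 15.7% of the UMIs of mitochondrial-encoded members and 3.27% of those of nuclear-encoded members. In them mt- genes took 34.5% of UMIs, of which 26.0% of all UMIs were the ribosomal RNAs and 8.37% the 13 members, and nuclear-encoded members took 1.10%. The 59 removed day 14 cells were made up otherwise, with 5.51% on the ribosomal RNAs and 23.1% on the members. The ratio of mitochondrial to nuclear members was 7.62 (7.55 to 7.68) in removed cells at day 7 and 23.6 at day 14. By class, removed day 7 cells had 8.97 in astrocyte-like, 8.87 in microglia/macrophages and 9.56 in oligodendrocyte-like cells. Cells were removed by their share of mt- UMIs, which include the 13 members. The limit itself therefore favours high ratios in removed cells and lower ratios in kept ones.

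The filter, which acts on a share that includes the 13 members, lowered the day 7 ratio and left day 7 above the other libraries in these classes. Over all cells the ratio was 1.38 after the filter, against 1.59 before it. In astrocyte-like cells it was 2.36 after it, against 2.79 before it. In microglia/macrophages it was 0.915 after it, against 0.981 before it, and in oligodendrocyte-like cells 1.87, against 2.07. Among neural progenitor or neuroblast-like cells it was 0.948 after it, against 1.16 before it. With a limit of 10% in place of 20%, the ratio over all day 7 cells was 1.13, and in the other libraries, at 20%, it was 0.380 in sham, 0.484 at day 1, 0.486 at day 3 and 0.490 at day 14. Kept day 7 cells still differed from the other libraries in the ribosomal RNAs, which are no members. These took 0.175% of kept UMIs in sham, 0.357% at day 1, 0.365% at day 3, 3.61% at day 7 and 0.176% at day 14. Per UMI of the 13 members there were 0.224 ribosomal RNA UMIs in sham, 0.357 at day 1, 0.270 at day 3, 1.54 at day 7 and 0.183 at day 14. The median share of mt- UMIs over cells before the filter was 5.93% at day 7 and 0.717% to 1.60% in the other libraries. What part damaged cells have in the day 7 values was not tested.

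Among the 13 mitochondrial-encoded members, mt-Cytb, the only complex III subunit of that genome, was the largest. In microglia/macrophages it was at 875 CPM in sham, 1903 at day 1, 3375 at day 3, 3803 at day 7 and 2304 at day 14, and in astrocyte-like cells at 3211, 3581, 6495, 14358 and 11669 in the same order. In oligodendrocyte-like cells it was at 2800, 3911, 5351, 8552 and 7835. All 4 injured libraries were above sham in the 3 classes. mt-Nd1, a membrane subunit of complex I, was at 602 CPM in sham microglia/macrophages, 1909 at day 1, 2524 at day 3, 2308 at day 7 and 1550 at day 14. mt-Co1, the catalytic subunit of complex IV, was at 186, 435, 984, 973 and 391 CPM in these cells, with day 3 and day 7 close together.

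The other way went mt-Co2, which carries the copper site that takes electrons from cytochrome c. It was at 30.1 CPM in sham microglia/macrophages, 12.8 at day 1, 10.5 at day 3, 7.93 at day 7 and 5.31 at day 14, so the log2 differences from sham were −1.24, −1.51, −1.92 and −2.50. mt-Nd4l, a small membrane subunit of complex I, was at 23.3 CPM in sham, 12.6 at day 1, 17.5 at day 3, 4.68 at day 7 and 1.84 at day 14, and its day 3 difference turned to 0.07 with TMM scaling. mt-Co3 and mt-Atp6, the proton channel subunit of complex V, were also lower than sham in each injured library. In astrocyte-like cells mt-Atp6 was at 433 CPM in sham, 110 at day 1, 93.2 at day 3, 167 at day 7 and 76.5 at day 14.

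In counts, a member was called higher or lower when it differed from sham by at least 2-fold, among genes with a mean of at least 10 CPM in both libraries compared. Of the 13 members, 7, 8, 9 and 4 were called higher in microglia/macrophages from day 1 to day 14, and 1, 3, 3 and 4 lower. The same share over all measured genes of the class was 7.87%, 9.63%, 4.93% and 6.55% higher and 10.3%, 26%, 14.6% and 26.4% lower. In astrocyte-like cells 0, 3, 9 and 4 of the 13 were called higher, where the share over all genes was 12.4%, 6.7%, 4.19% and 14.3%. In the same cells 4 were called lower at each time, where the share was 14.3%, 12.6%, 9.85% and 7.65%. In oligodendrocyte-like cells 4, 5, 8 and 5 were called higher, where the share was 6.65%, 10.1%, 4.98% and 4.04%, and 3, 3, 4 and 4 lower, where the share was 4.98%, 14.1%, 5.44% and 3.66%. In all 3 classes the members called lower were mt-Co2, mt-Co3, mt-Atp6 and mt-Nd4l or some of them.

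These 4 members have in common that their transcripts are almost wholly copied in the nucleus. Of all stretches of 90 bases in the gene, 99.9% in mt-Co3, 99.5% in mt-Co2, 99.5% in mt-Atp6 and 98.6% in mt-Nd4l also occurred in another annotated gene, unprocessed pseudogenes on chromosome 1 such as Gm28437, Gm28661, Gm10925 and Gm10222. The share was 0 in mt-Nd1, mt-Cytb, mt-Atp8 and mt-Nd6, 0.346% in mt-Nd5, 4.21% in mt-Nd2, 33.4% in mt-Co1 and 61.1% in mt-Nd4. Per kb of gene and over the 5 libraries, mt-Co2 had 5708 UMIs, mt-Co3 13022, mt-Nd4l 16320 and mt-Atp6 38890. Of the others, mt-Nd1 had 885204, mt-Nd2 841955, mt-Nd4 588390, mt-Atp8 586098, mt-Co1 250093, mt-Nd5 102936 and mt-Nd6, the 1 member on the other strand, 39773. mt-Nd3 was an exception, with 97.7% of its stretches copied and 684509 UMIs per kb. The T3C difference of its copy lies outside its last 300 bases. There 98.6% of its stretches were copied, as in mt-Co2 and mt-Atp6. Another exception was mt-Co1, since all stretches within its last 300 bases were copied, in Gm29216, while it had 250093 UMIs per kb. The pseudogenes themselves held few UMIs, 1200 in Gm28437, 755 in Gm28661, 846 in Gm10925, 204 in Gm10222 and 130 in Gm28438. How reads with several matches were treated in the authors' counting is not stated, so the levels of these 4 members and their differences from sham are uncertain, and the part of the copies in them was not tested.

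The 4 members with no copy in another annotated gene (mt-Nd1, mt-Cytb, mt-Atp8 and mt-Nd6) were also set alone against the nuclear-encoded members. This choice was made after seeing the data, and sequence outside annotated transcripts was not searched. mt-Atp8 lies between mt-Co2 and mt-Atp6, whose copies Gm28661 and Gm10925 lie near each other on chromosome 1. Gm10925 ends at chr1:24614651 and Gm28661 starts at chr1:24614885. An unannotated copy of mt-Atp8 may lie between them, which was not searched. With these 4 members the ratio exceeded sham in each injured library. In microglia/macrophages the log2 differences were 0.80, 0.99, 1.77 and 0.74 from day 1 to day 14, and in astrocyte-like cells 0.49, 1.10, 2.51 and 1.65. Those at day 3 and day 14 in microglia/macrophages and at day 1 and day 3 in astrocyte-like cells were over 1.5 times the values with all 13 members (0.63, 0.32, 0.28 and 0.72).

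The make-up of the mitochondrial sum over all kept cells differed between libraries as well. mt-Cytb made up 27.3% of it in sham, 29.4% at day 1, 31.3% at day 3, 28.7% at day 7 and 36.7% at day 14. mt-Nd1 made up 12.7%, 16.3%, 20.1%, 14.4% and 21.1%, while mt-Nd2 made up 19.0%, 16.3%, 14.5%, 19.7% and 11.7%, so the day 7 make-up in these members lay nearer to sham than that of day 3 or day 14. mt-Atp6 made up less of it in each injured library, with 3.70% in sham, 1.21% at day 1, 0.517% at day 3, 0.441% at day 7 and 0.332% at day 14. mt-Atp8, whose reading frame overlaps that of mt-Atp6 on a shared transcript, made up 1.96% in sham, 2.34% at day 1, 3.53% at day 3, 2.84% at day 7 and 0.590% at day 14. Among the members with no annotated copy, mt-Atp8 had the widest swing in microglia/macrophages, at 49.8 CPM in sham, 137 at day 1, 387 at day 3, 357 at day 7 and 29.2 at day 14. The log2 differences were 1.46, 2.96, 2.84 and −0.77. In astrocyte-like cells mt-Atp8 was at 257 CPM in sham, 290 at day 1, 705 at day 3, 1170 at day 7 and 159 at day 14, and in oligodendrocyte-like cells at 188, 404, 832, 1116 and 159, so in all 3 classes day 14 was below sham while mt-Cytb was above it. With TMM scaling the day 14 difference of mt-Atp8 was −0.07 in microglia/macrophages, −0.92 in astrocyte-like cells and −0.19 in oligodendrocyte-like cells. Cells removed by the filter kept these marks, with mt-Atp8 at 3.01% of the mitochondrial sum at day 7 and 0.625% at day 14.

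**Figure D3:**
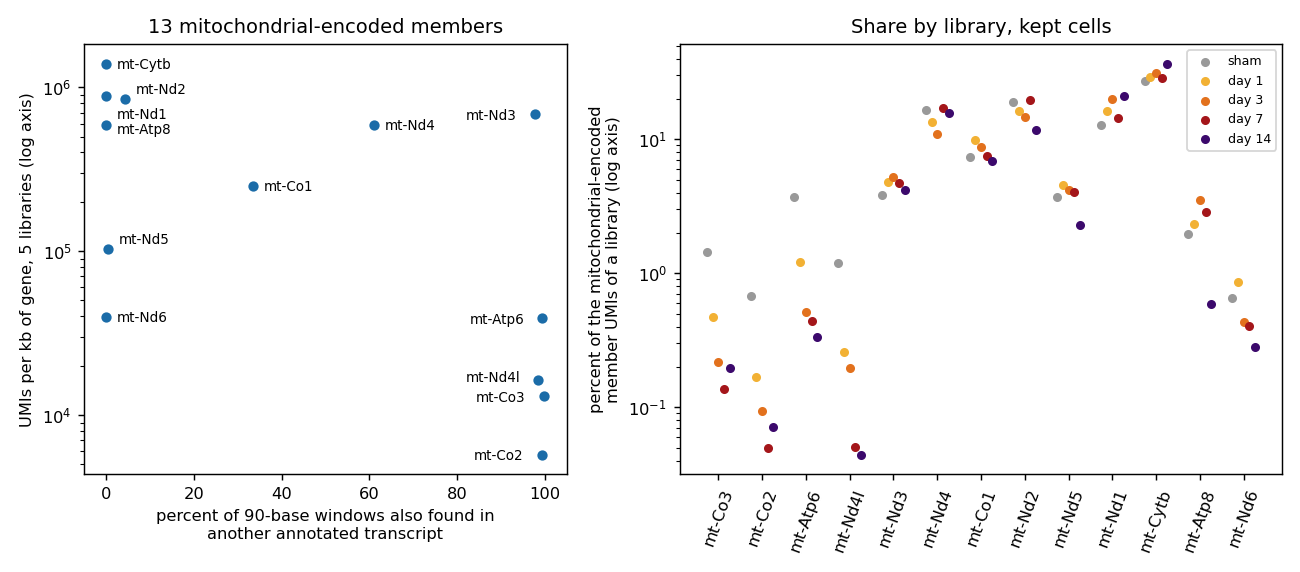
Left, UMIs per kb over the 5 libraries (log axis) of each of the 13 mitochondrial-encoded members against the percent of its 90-base stretches found in another annotated transcript; right, the percent of the mitochondrial sum that each makes up in kept cells (log axis), by library. mt-Co2, mt-Co3, mt-Atp6 and mt-Nd4l lie low at the right end of the left panel, mt-Nd3 lies high there, and mt-Atp8 is lowest at day 14 (0.590%).

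The nuclear-encoded members were then taken complex by complex. In microglia/macrophages 9 of 85 measured members were called higher at day 1, 37 of 84 at day 3, 4 of 83 at day 7 and 9 of 83 at day 14, where the share over all genes was 7.87%, 9.63%, 4.93% and 6.55%. At day 1 and day 7 the members' share was near that of all genes. Members called lower were 0 at day 1, 0 at day 3, 2 at day 7 and 1 at day 14, where the share over all genes was 10.3%, 26%, 14.6% and 26.4%. The median log2 difference of the measured members was 0.44, 0.84, 0.14 and 0.52 from day 1 to day 14, beside the medians of all genes given above. Under TMM scaling, with mitochondrial members included, 67 in place of 45 were called higher at day 3, 21 in place of 13 at day 7 and 60 in place of 13 at day 14. TMM scaling moved every gene of the class up, and the shares over all genes given here are without it. The TMM counts therefore cannot be set against such a share.

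At day 3 the nuclear members of complex IV in microglia/macrophages summed to 7715 CPM, against 3178 in sham, a log2 difference of 1.28, and 10 of 13 measured were called higher. Complex III members summed to 2566 CPM, against 1226 in sham (1.07, 5 of 8 called higher), complex V to 6286, against 2991 (1.07, 7 of 16), and complex I to 7725, against 4142 (0.90, 15 of 37). Complex II members summed to 378 CPM, against 324 in sham, a difference of 0.22 with 0 of 4 called. The complex I assembly factors summed to 191 CPM at day 3, against 250 in sham (−0.39, 0 of 6 called higher), close to the median of all genes, and to −0.49 at day 7 and −0.40 at day 14 on the log2 scale. With TMM scaling these differences were 0.10, −0.10 and 0.29, so their direction at day 3 and day 14 depended on the scaling. Complex IV was above sham at day 7 and day 14 (0.51 and 0.85, with 2 and 6 of 13 called higher). Complexes III, IV and V thus stood further above sham at day 3 than complex II and the assembly factors, in sums without a test. TMM scaling moves every gene of the class by the same amount, so it cannot change this order.

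The largest nuclear member of each group gives the levels behind these sums. Cox4i1, the subunit IV of complex IV (chr8:120668222-120674207, plus strand), was at 524 CPM in sham microglia/macrophages, 686 at day 1, 1284 at day 3, 995 at day 7 and 1090 at day 14. Atp5e, the epsilon subunit in the stalk of complex V (chr2:174461072-174464105, minus strand), was at 334, 727, 1120, 580 and 738 CPM. Uqcrh, the hinge subunit of complex III (chr4:116066965-116075071, minus strand), was at 240, 279, 489, 542 and 638 CPM, and unlike Cox4i1 and Atp5e it was highest at day 14. Ndufb1-ps (chr12:101968090-101977068, minus strand), annotated as a long noncoding RNA from a bidirectional promoter, was at 218, 478, 819, 319 and 355 CPM. Sdhb, the iron-sulfur subunit of complex II (chr4:140961203-140979193, plus strand), was at 109, 111, 173, 115 and 138 CPM. Ndufaf8, a complex I assembly factor (chr11:120098928-120100705, plus strand), was at 56.1, 72.2, 63.6, 56.0 and 69.8 CPM, the flattest of the 6. Sham was the lowest or close to the lowest library for all 6.

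**Figure D4:**
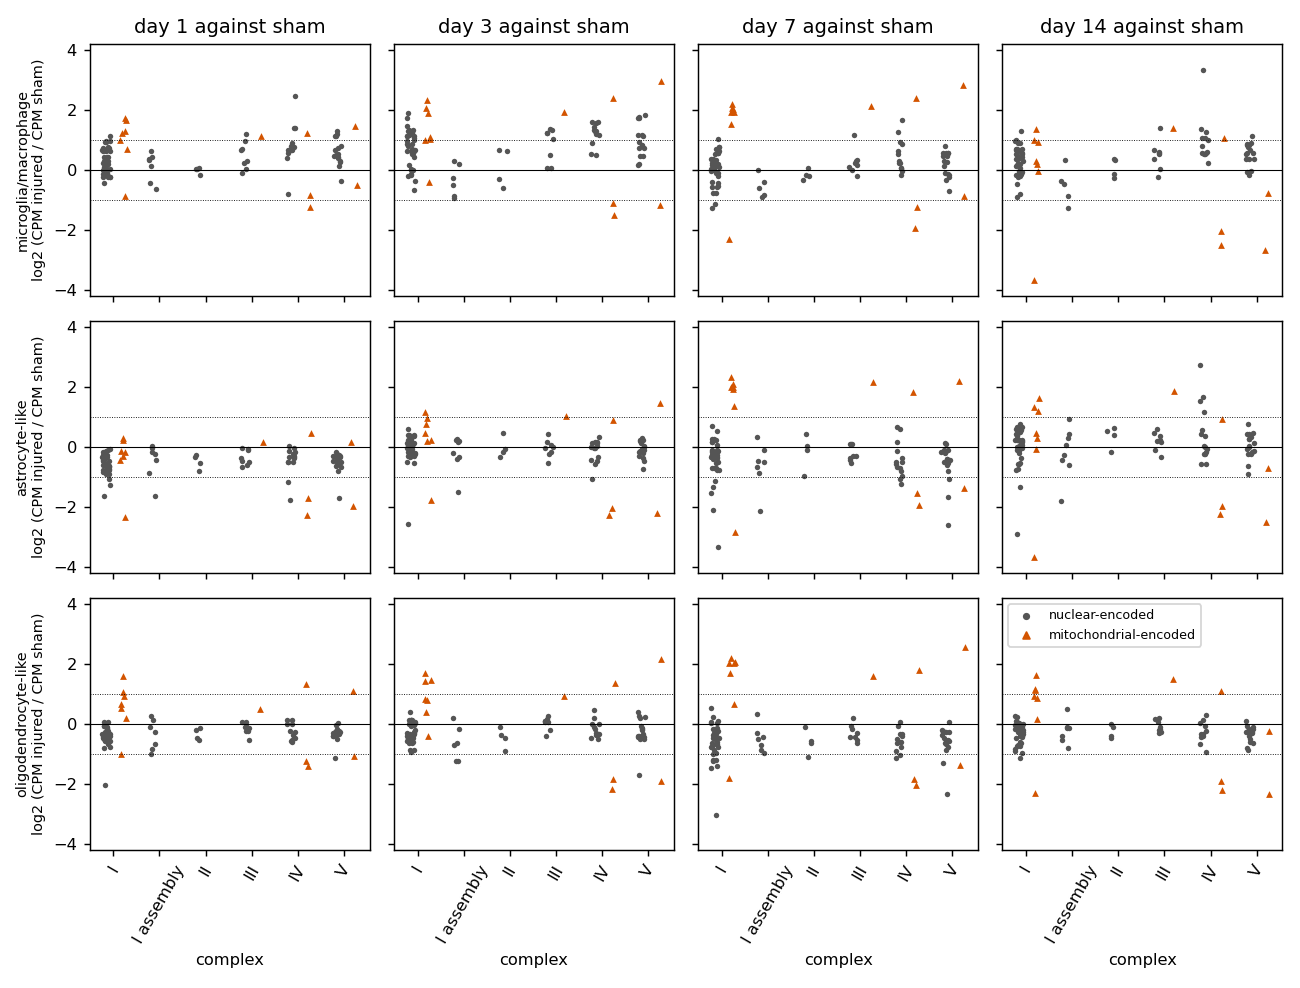
log2 of injured over sham CPM for every measured member, by complex, with 1 dot for each nuclear-encoded and 1 triangle for each mitochondrial-encoded member, in microglia/macrophages, astrocyte-like and oligodendrocyte-like cells at day 1, 3, 7 and 14. The dotted lines mark 2-fold; the complex IV dots of microglia/macrophages at day 3 have a median of 1.31, and most dots of oligodendrocyte-like cells lie below 0.

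Single members at the ends of the range in microglia/macrophages were named by rank among those with at least 50 CPM in 1 of both libraries. At day 3 they were Ndufb1-ps with 819 CPM, against 218 in sham (log2 difference 1.91, 1.81 to 2.02), and the complex V subunits Atp5k with 550, against 154 (1.84), and Atp5l with 504, against 149 (1.76). At day 1 they were Cox6a2 with 66.4 CPM, against 11.9 in sham (2.48, 2.03 to 2.96), Cox7b with 467, against 176 (1.41), and Ndufa4, now known as a subunit of complex IV, with 430, against 163 (1.40). At day 14 Cox6a2 led again with 119 CPM, against 11.9 in sham (3.32, 2.90 to 3.79). Uqcrh with 638, against 240 (1.41), and Cox7a2l with 471, against 183 (1.37), came next. Cox7a2l is described as a factor that joins complexes III and IV into supercomplexes, and whether it does so in this mouse strain was not measured.

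Cox7a2l took both ends of the ranking. It was at 183 CPM in sham microglia/macrophages, 106 at day 1, 257 at day 3, 442 at day 7 and 471 at day 14, lowest against sham of the nuclear members with at least 50 CPM at day 1 (−0.79) and highest at day 7 (1.27). Microglia-like and monocyte/macrophage-like cells had like levels, with 439 and 463 CPM at day 7 and 483 and 447 at day 14. Also high at day 7 were Uqcrh with 542, against 240 in sham (1.18), and Ndufa1 with 167, against 81.3 (1.04).

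At the low end, Ndufaf7, a methyltransferase that acts in complex I assembly, was among the lowest 3 members at each time. It was at 41.9 CPM at day 1, 29.5 at day 3, 30.2 at day 7 and 23.3 at day 14, against 56.9 in sham, and at day 14 this was past 2-fold (−1.29). With TMM scaling 0 nuclear members of this class were past 2-fold lower at any of the 4 times. At day 7 Ndufb4 was at 29.7 CPM, against 71.0 in sham (−1.26), and Ndufab1, the acyl carrier protein, at 53.5, against 118 (−1.14). Both were also among the lowest at day 14, Ndufb4 with 51.4 (−0.47) and Ndufab1 with 68.5 (−0.79). At day 3 the flavoprotein subunit Sdha was at 55.5, against 84.0 in sham (−0.60), and Ndufa9 at 48.1, against 62.8 (−0.38). At day 1 Ndufs3, a core subunit of complex I, was at 62.6, against 85.3 (−0.45).

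In astrocyte-like cells the nuclear members lay mostly below sham at day 1 and day 7. Called lower were 7 of 88 at day 1, 3 of 89 at day 3, 11 of 88 at day 7 and 3 of 90 at day 14, where the share over all genes was 14.3%, 12.6%, 9.85% and 7.65%. Called higher were 0, 0, 0 and 4, where it was 12.4%, 6.7%, 4.19% and 14.3%. The medians of the members were −0.48, −0.03, −0.34 and 0.16, beside −0.07, −0.11, −0.14 and 0.13 for all genes. At day 1 all 38 measured nuclear members of complex I were below sham, or 34 of 38 with TMM scaling. At day 7 the sums differed from sham by −0.59 in complex IV, −0.40 in complex V, −0.34 in complex I and −0.24 in complex III, while complex II was at 0.01 and the assembly factors at −0.91.

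Ndufaf4, a complex I assembly factor, had the lowest value against sham of the nuclear members with at least 50 CPM in astrocyte-like cells at day 3, 7 and 14. It was at 196 CPM in sham, 173 at day 1, 69.8 at day 3, 45.0 at day 7 and 55.7 at day 14, so that day 1 stood near sham and the later 3 libraries below it, by −1.49, −2.12 and −1.81. Ndufb4, an accessory subunit of complex I, was at 192 CPM in sham, 79.8 at day 1, 164 at day 3, 45.0 at day 7 and 75.2 at day 14. Atp5l, the subunit g of complex V, was at 358, 241, 366, 112 and 233 CPM in the same order, low at day 7 alone by over 2-fold (−1.68). Cox6c, an accessory subunit of complex IV, was at 1191, 951, 884, 503 and 809 CPM. Ndufa8 with 85.9, against 182 in sham (−1.08), and Ndufb10 with 144, against 270 (−0.91), were low at day 1. Ndufa12 with 212 and the Rieske subunit Uqcrfs1 with 140 at day 3, against 308 and 203 in sham, both differed by −0.54.

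Nuclear members of astrocyte-like cells above sham were 2 of 88 at day 1, 41 of 89 at day 3, 20 of 88 at day 7 and 53 of 90 at day 14, and with TMM scaling 15, 53, 33 and 38. Named here are the highest 3 at day 3, day 7 and day 14, and the highest at day 1, of those with at least 50 CPM in sham or the injured library. At day 7 they were Ndufv1, which binds NADH, with 91.9 CPM, against 57.2 in sham (0.68), Cox7a2l with 136, against 86.4 (0.65), and Ndufa9 with 77.7, against 54.1 (0.52), none of them past 2-fold. At day 14 Cox6b2 had 158 CPM, against 23.9 in sham (2.72, 2.34 to 3.11), Cox7a1 57.0, against 19.9 (1.52), and Cox7a2l 193, against 86.4 (1.16), and the 4 members called higher were all of complex IV, 3 of them past 2-fold with TMM scaling too. At day 3 Ndufb1-ps had 527, against 352 (0.58), Sdhb 204, against 147 (0.47), and Uqcrb 334, against 247 (0.43). At day 1 the highest was Ndufa4 with 601, against 588 in sham (0.03, −0.05 to 0.11), a difference within counting error. Only 210 astrocyte-like cells were kept at day 14, mostly in another cluster than those of sham.

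Oligodendrocyte-like cells had no nuclear member called higher in any injured library, of 86, 84, 87 and 85 measured, where the share over all genes was 6.65%, 10.1%, 4.98% and 4.04%. Called lower were 3, 3, 11 and 1, where it was 4.98%, 14.1%, 5.44% and 3.66%. The medians were −0.34, −0.32, −0.50 and −0.26, beside 0.03, −0.14, −0.07 and 0.05 for all genes. TMM scaling moved the genes of this class by 0.01 to 0.12. At day 7 complex IV differed by −0.67, complex I by −0.53, complex V and complex II by −0.50 each and complex III by −0.36. Cox4i1 was at 1307 CPM in sham, 855 at day 1, 1004 at day 3, 866 at day 7 and 962 at day 14, and Cox6c at 1287, 927, 905, 579 and 676. Atp5e was at 522, 447, 383, 335 and 430 CPM. Sham was the highest library for all 3.

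The lowest members of oligodendrocyte-like cells overlapped with those of the other classes. Ndufb4 was at 147 CPM in sham, 99.2 at day 1, 104 at day 3, 52.9 at day 7 and 75.0 at day 14. At day 7 Ndufab1 was at 65.6, against 172 in sham (−1.39), and Atp5l at 108, against 269 (−1.32). Ndufaf8 was lowest at day 1 with 35.7, against 64.1 in sham (−0.84), and at day 3 with 27.0 (−1.25), beside the assembly factor Ndufaf2 with 58.4, against 138 (−1.24). At day 14 Ndufa12 was at 61.7, against 135 (−1.14). The upper end was close to sham, led by Ndufv1 at day 7 with 99.9, against 69.1 (0.53), and by Ndufa4 with 353 at day 1, 444 at day 3 and 393 at day 14, against 321 in sham.

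Several of these members share sequence or ground with other genes, and their levels are uncertain. Ndufb4 shares 19.1% of its 90-base stretches with Ndufb4c, itself a member, whose own stretches are all found in Ndufb4. For Atp5l the shared part is 33.1%, mostly with pseudogenes, for Ndufa12 it is 20.4% and for Ndufab1 13.3%. Ndufaf4, Ndufb1-ps, Uqcrh, Cox7a2l, Cox4i1 and Atp5e share none. Of the 94 nuclear members 73 share none and 2 share at least 50%. In 33 members exon bases overlap those of another gene, in 30 of them a gene on the opposite strand, and the sources used here do not say whether the authors' counting used strand.

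Other gene lists were counted beside the complexes in microglia/macrophages, where 7.87%, 9.63%, 4.93% and 6.55% of all genes were called higher from day 1 to day 14 and 10.3%, 26%, 14.6% and 26.4% lower. Most list counts other than those of cytosolic ribosomal proteins were near or below these shares, with exceptions at day 14 in lists of 6 and 9 genes. Of the 16 genes of the TCA cycle, which feeds electrons into complexes I and II, 1, 0, 0 and 0 were called higher from day 1 to day 14 and none lower at any of the 4 times. Of the genes for electron carriers and ATP export 0, 1, 0 and 0 of 13 were called higher. Mitochondrial ribosomal protein genes had 3 of 78, 9 of 77, 1 of 77 and 3 of 77 called higher and 0, 3, 5 and 4 lower. Assembly factors outside the symbol rule had 0, 0, 1 and 0 called higher and 1, 5, 6 and 4 lower of 32, 30, 30 and 28. Genes for mitochondrial DNA expression, such as Tfam and Polrmt, had 0 called higher, and 0, 2, 0 and 5 lower of 10, 9, 9 and 9. Biogenesis regulators, such as Ppargc1a and Nrf1, had 0 higher, and 0, 2, 1 and 3 lower of 6. Cytosolic ribosomal protein genes, which serve translation outside mitochondria, had 19, 53, 32 and 61 of 78 called higher, more at each time than the nuclear members in number and share. In oligodendrocyte-like cells 0 of 78 cytosolic ribosomal protein genes were called higher, and 1, 6, 14 and 3 lower, where 4.98%, 14.1%, 5.44% and 3.66% of all genes were lower.

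Some complex IV subunits exist as tissue isoforms, and these set cell classes apart more than the complexes did. Cox6a2, in muscle the heart and skeletal isoform of subunit VIa (chr7:128205435-128206387, minus strand), was at 11.5 CPM in sham microglia-like cells, 67.8 at day 1, 25.7 at day 3, 41.8 at day 7 and 160 at day 14. Its broad counterpart Cox6a1 was at 181, 283, 312, 191 and 267 CPM in the same cells. Monocyte/macrophage-like cells had less Cox6a2, with 5.6 CPM at day 1, 3.2 at day 3, 12.1 at day 7 and 37.6 at day 14, while T or NK cell-like cells had 54.7 at day 3, 15.6 at day 7 and 17.8 at day 14. Of all nuclear members, Cox6a2 had the highest ratio of microglia/macrophages to the other named cells in 5 of 5 libraries, with 119 CPM, against 9.05 in the other named cells, at day 14, and 11.9, against 1.00, in sham. Unnamed cells, which are left out of that ratio, had 192 CPM of Cox6a2 at day 14, above the microglia-like level, and 40.9 at day 7. Of the unnamed clusters, cluster 18 had the most Cox6a2 over all libraries, with 3.73 CPM in cluster 11 and 9.67 in cluster 23. Cluster 18 passed 3 of 15 microglia markers, and its leading genes included Mki67 and Top2a. It held 75 of the 160 unnamed cells kept at day 14, so the unnamed level does not show Cox6a2 in a class apart from microglia. Cox6a2 overlaps Itgad on the opposite strand by 70 exon bases. Itgad was at 0.23 to 1.01 CPM in microglia-like cells, and up to 143 CPM in oligodendrocyte-like cells at day 3.

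Endothelial-like cells were marked by Ndufa4l2, known in other cells as a hypoxia-induced relative of Ndufa4. It was at 70.2 CPM there in sham, 80.4 at day 1, 68.9 at day 3, 144 at day 7 and 98.0 at day 14, and at 0 to 0.716 CPM in the other named cells pooled. Cells of unnamed clusters also held it, with 11.1 CPM at day 1, 6.32 at day 3, 104.6 at day 7 and 23.8 at day 14. Cox4i2, the isoform of subunit IV linked to low oxygen in lung, was at 17.5, 28.7, 43.5, 70.1 and 66.4 CPM in the same cells, beside 737 to 1006 CPM of Cox4i1. Cox4i2 was also at 60.2 CPM in plasma cell-like cells at day 14 and at 67.4 CPM in unnamed cells at day 7. The plasma cell-like cluster also passed 6 erythroid markers, with Hba-a1 among its leading genes. Which of its cells held Cox4i2 was not tested. Pericyte markers summed to 3045 CPM in the endothelial-like cluster and to 6679 CPM in an unnamed cluster with Col1a1. In that unnamed cluster Ndufa4l2 was at 162 CPM and Cox4i2 at 86.5 CPM. The part of pericyte RNA in these levels was not tested. Ndufa4l2 overlaps Shmt2 by 32 exon bases.

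Choroid plexus epithelium-like cells held Cox8b, an isoform found in mouse muscle, at 266 CPM at day 1, 355 at day 3 and 309 at day 14, with 0.162 to 0.477 CPM in the other named cells. They also held Cox6b2, described as a testis isoform, at 208, 164 and 178 CPM, Cox7a1, the heart and muscle isoform, at 96.9, 75.7 and 106 CPM, and the broad forms Cox4i1 at 2063, 2473 and 2828 CPM and Cox8a at 2843, 3148 and 3607 CPM. Other classes held the same isoforms. In astrocyte-like cells Cox6b2 was at 23.9 CPM in sham, 7.0 at day 1, 11.4 at day 3, 36.5 at day 7 and 158 at day 14, and Cox7a1 at 19.9, 8.8, 13.5, 13.4 and 57.0 CPM. Oligodendrocyte precursor-like cells had 32.0 CPM of Cox6b2 in sham, and the ependymal-like cluster, over all libraries, 86.8 CPM of Cox6b2 and 30.7 of Cox7a1. Ndufaf2 led in oligodendrocyte-like cells in 4 of 5 libraries, for example with 138 CPM in sham, against 43.6 in the other named cells. It overlaps the long noncoding gene B230220B15Rik, which held 9 UMIs.

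**Figure D5:**
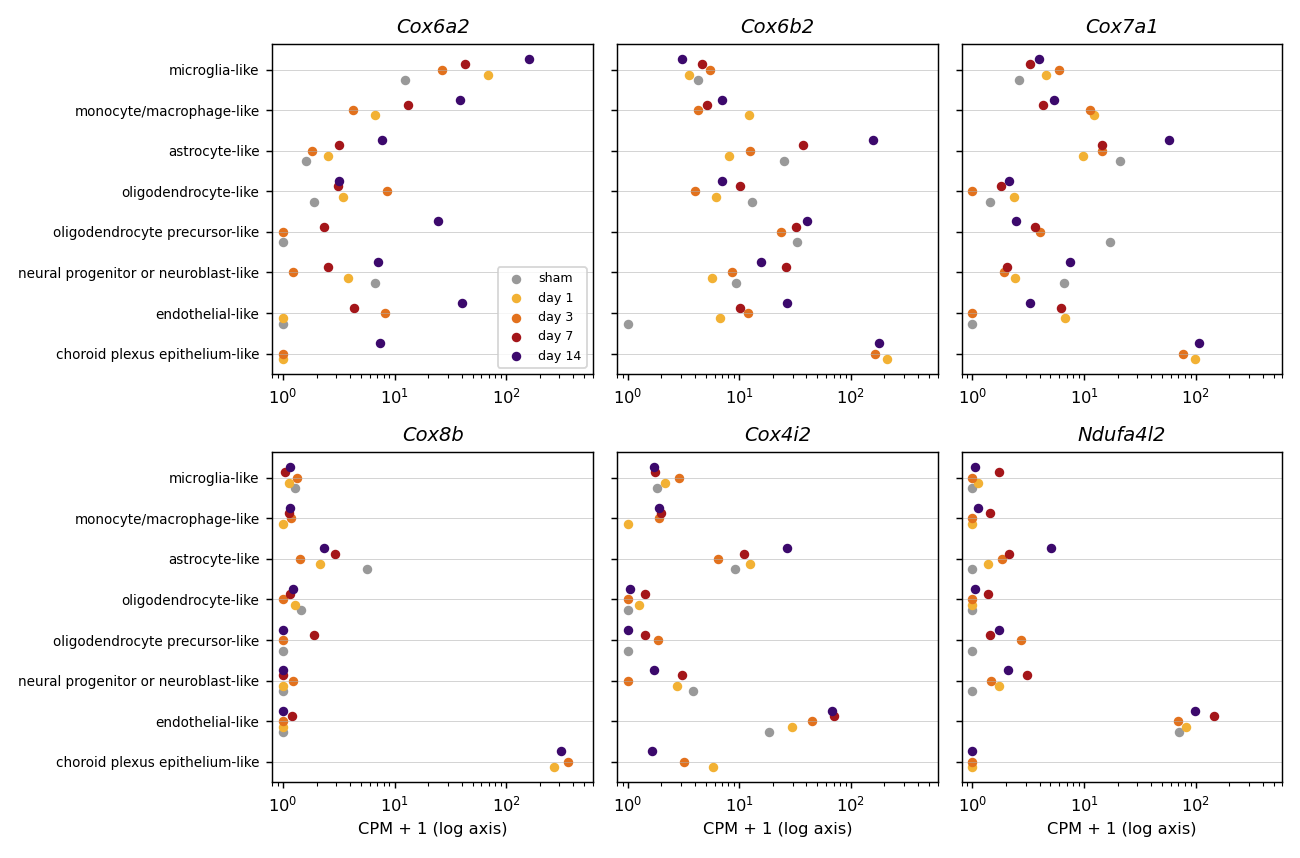
CPM + 1 (log axis) of 6 tissue isoforms by cell class (rows) and library (colours) in kept cells. Unnamed cells and some small classes are not drawn; of the 8 classes drawn, Cox6a2 is highest in microglia-like cells at day 14 (160 CPM), Ndufa4l2 and Cox4i2 in endothelial-like cells and Cox8b in choroid plexus epithelium-like cells.

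Promoter sequences were read because many nuclear members are known targets of NRF1, a transcription factor for respiratory chain genes. RefSeq promoters of 300 bases (250 before the start and 50 after it, GRCm38.p6) were found for 77 of the 94 nuclear members. All letters were searched on both strands. GCGCATGC, from the NRF1 motif, occurred in 12 of the 77 (15.6%) and in 3.05% of 27025 genes with such a promoter. Looser letters, CGCANGCG, which can overlap the first, occurred in 28 (36.4%), against 9.22%. AAGATGGCG, a motif of the factor YY1, was in 8 (10.4%), against 1.64%, and the ETS letters CCGGAAGT in 5 (6.49%), against 4.31%. GGGCGGG was in 28 (36.4%), against 27.9%, and TATAAA in 7 (9.09%), against 15.7%. The 12 with GCGCATGC were Atp5g2, Atp5k, Atp5l, Cox6a1, Ndufa6, Ndufa8, Ndufa11, Ndufaf4, Ndufaf5, Sdhb, Uqcr11 and Uqcrc1. Shown are 2 of them that lay at opposite ends of the values above, Atp5k, among the highest at day 3 in microglia/macrophages, and Ndufaf4, among the lowest in astrocyte-like cells from day 3, with the NRF1 letters of either strand in capitals. A match in these windows is a description of letters and not of binding.
Atp5k (chr5:108434350-108434649, minus strand): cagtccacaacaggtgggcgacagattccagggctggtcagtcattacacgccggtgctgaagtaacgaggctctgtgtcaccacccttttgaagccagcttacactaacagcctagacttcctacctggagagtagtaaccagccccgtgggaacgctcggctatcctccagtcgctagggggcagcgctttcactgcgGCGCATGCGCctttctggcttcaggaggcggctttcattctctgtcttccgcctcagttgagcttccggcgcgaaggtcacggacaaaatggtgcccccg
Ndufaf4 (chr4:24897833-24898132, plus strand): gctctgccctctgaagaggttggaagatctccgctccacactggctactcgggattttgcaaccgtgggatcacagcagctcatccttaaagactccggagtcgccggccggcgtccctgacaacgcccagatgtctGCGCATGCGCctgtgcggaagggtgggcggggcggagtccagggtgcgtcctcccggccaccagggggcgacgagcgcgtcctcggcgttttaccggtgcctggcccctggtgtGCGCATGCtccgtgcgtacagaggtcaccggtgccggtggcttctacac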

How the data were processed

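The deposited matrices hold UMI counts per gene and barcode, whole numbers that the authors made with Cell Ranger 4.0.0, per the file headers. STAR 2.5.37 and Seurat 3.2.0 appear in the submitters' processing notes with no role given, as do GRCm38 and mm10. Barcodes with at least 500 UMIs, 200 genes and at most 20% mt- UMIs were kept after removing Scrublet doublets (scanpy 1.11.5). Leiden clusters (resolution 1) came from a clustering without mt- genes and members. They were named from 176 markers of 18 classes, with at least 3 detected in 10% of cells and 2-fold above other clusters. A cluster was left unnamed otherwise, or when another class had more markers among its 10 leading genes. The latter left clusters 11, 18 and 23 unnamed, which passed 11 of 12 astrocyte, 3 of 15 microglia and 8 of 9 pericyte or smooth muscle markers. Counts were summed per class and library with at least 50 cells, and given as CPM. Intervals are exact Poisson, conditional binomial or Clopper-Pearson, with a Wald interval on the log scale for ratios against sham, and all treat UMIs as independent. No test was run, since each group is 1 library. Steps across many genes were tested on simulated data. Promoters were matched by symbol, gene ID or synonym. Copies were searched as shared 90-base stretches of annotated transcripts, and TMM came from edgeR 4.0.16. Named were the 13 mitochondrial members, the largest nuclear member per complex, the 3 highest and 3 lowest per class and time with at least 50 CPM in 1 of both libraries, isoform pairs and the member highest against other cells. Members and lists were chosen with earlier results of these data known.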

Additional observations from a re-analysis of the deposited data

Results flagged for a closer look

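The nuclear-encoded sum lay above sham in microglia/macrophages and below sham in oligodendrocyte-like cells in each of the 4 injured libraries. The log2 difference of microglia/macrophages less that of oligodendrocyte-like cells was 0.88 at day 1, 1.27 at day 3, 0.85 at day 7 and 0.92 at day 14. Both classes shared the sham library, and the difference was not tested.

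The ribosomal RNA genes of the mitochondrial genome, which are no members, took 0.357% of kept UMIs at day 1, 0.365% at day 3 and 3.61% at day 7, above the 0.175% of sham. In day 7 microglia/macrophages they took 2.81%, against 0.0665% in sham, and in astrocyte-like cells 5.78%, against 0.312%.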

How the results depend on the processing

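No paired analysis was possible because each group is 1 library, and no replicate could be left out. All 12 log2 differences of the ratio were above 0 under every alternative run. The values that moved beyond counting error follow, in the order day 1, 3, 7, 14 unless named. With 1000 UMIs per cell they were 0.32, 0.40, 1.42 and 0.086 in microglia/macrophages, 0.092, 0.59, 2.26 and 0.96 in astrocyte-like cells, and 2.37 at day 7 and 1.59 at day 14 in oligodendrocyte-like cells. Thinned to 500 UMIs, they were 0.95, 1.87 and 0.65 from day 3 in microglia/macrophages, 0.42, 0.88, 2.50 and 1.86 in astrocyte-like cells, and 1.24, 1.62 and 1.63 at day 1, 3 and 14 in oligodendrocyte-like cells. With no mt- limit they were 1.76 at day 7 in microglia/macrophages, 2.62 and 1.15 at day 7 and 14 in astrocyte-like cells, and 2.45 and 1.55 in oligodendrocyte-like cells. With a 10% limit they were 1.60 at day 7, 2.02 and 0.90 at day 7 and 14, and 1.19, 2.13 and 1.49 from day 3 in the same classes. With doublets kept, they were 0.25, 2.34 and 0.97 at day 1, 7 and 14 in astrocyte-like cells and 0.78, 1.10, 2.19 and 1.37 in oligodendrocyte-like cells. At clustering resolution 2 the day 7 value of astrocyte-like cells was 2.34. Classes by marker score gave 0.49, 0.68 and 1.59 to day 7, then 0.25, 0.37, 2.28 and 1.01, and 1.49 at day 14 in oligodendrocyte-like cells. In 2 settings added after seeing the data, microglia-like cells alone gave 1.17, 1.70 and 0.45 from day 3, and the mitochondrial members without an annotated nuclear copy gave 0.80, 0.99, 1.77 and 0.74, then 0.49, 1.10, 2.51 and 1.65, and 1.41, 2.33 and 1.81 from day 3.

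Over the alternatives, the mitochondrial sum differed from sham by 0.95 to 1.37, 1.49 to 2.16, 1.78 to 2.36 and 0.73 to 1.62 in microglia/macrophages, by 0.50 to 1.07, 1.67 to 2.16 and 0.95 to 1.79 from day 3 in astrocyte-like cells, and by 0.48 to 0.82, 0.91 to 1.26, 1.59 to 1.88 and 1.05 to 1.48 in oligodendrocyte-like cells. The nuclear sum differed by 0.55 to 0.67, 0.83 to 1.52, 0.29 to 0.70 and 0.49 to 1.29 in microglia/macrophages, by −0.41 to −0.18 (day 1) and −0.53 to −0.22 (day 7) in astrocyte-like cells, and by −0.41 to −0.30, −0.36 to −0.19, −0.57 to −0.42 and −0.34 to −0.27 in oligodendrocyte-like cells. Signs changed in astrocyte-like cells. The mitochondrial sum at day 1 (−0.12) was 0.011 thinned, 0.094 with TMM and 0.090 without the members that have an annotated copy. The nuclear sum at day 3 (−0.03) was 0.043 with doublets, 0.13 by marker score and 0.10 with TMM, and at day 14 (0.06) it was −0.069 thinned and −0.16 with TMM.

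Counts of members past 2-fold moved by over 1.5 times in these cases. With TMM, 21 in place of 13 were higher at day 7 and 60 in place of 13 at day 14 in microglia/macrophages, with 1 in place of 3 lower at day 3 and 2 in place of 5 at day 7, and 5 in place of 3 were higher at day 3 in astrocyte-like cells. No share over all genes is given for the TMM counts. With no CPM minimum, 4, 5, 8 and 8 in place of 1, 3, 5 and 5 were lower in microglia/macrophages, 1 in place of 0 was higher at day 1 in astrocyte-like cells, and 9 in place of 5 were higher at day 3 and 10 in place of 5 lower at day 14 in oligodendrocyte-like cells. With a minimum of 50 CPM, 0, 1, 2 and 1 were lower in microglia/macrophages, 5 in place of 11 and 4 in place of 7 at day 1 and 3 in astrocyte-like cells, and 2, 3 and 3 at day 1, 3 and 14 in place of 6, 6 and 5 in oligodendrocyte-like cells. At day 1 in microglia/macrophages 3 were lower with 1000 UMIs per cell and 2 by marker score, and thinned 1 was lower at day 3, with 12 in place of 6 at day 3 in oligodendrocyte-like cells. The causes were not tested beyond what the settings themselves change (fewer cells or genes). Sham cells were the shallowest, at a median of 773 UMIs, so low members are least precise there.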
